A study of Mus musculus with 2 samples.

Results

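Nuclear receptor genes outside the REV-ERB pair form a set of 44 mouse genes out of 21523 protein-coding genes, chosen by name as members of the family. A gene counted as near a peak when the centre of a FLAG-HLF peak lay in the gene body or within 20 kb on either side. By that rule 15 of the 44 were near a peak, through 18 distinct peaks out of 3153. The study asked where HLF (hepatic leukemia factor, a PAR bZIP transcription factor) binds in Lin-Sca-1+c-Kit+ cells, a surface phenotype in which blood stem and progenitor cells are enriched. Cells of C57BL/6 mice aged 8 to 10 weeks, with tissue labelled as blood, were infected with the MigR1 retrovirus carrying 3xFLAG-tagged HLF or with empty MigR1, and kept for 5 days in medium with IL-3 at 5 ng/ml, SCF at 50 ng/ml and 10 ng/ml each of Flt3L and IL-7. Chromatin bound by an anti-FLAG antibody was sequenced in 1 library per group, and the list of the FLAG-HLF library was analysed here. The empty-vector library was not analysed here. The tagged protein came from the vector, so its amount is that of the transduced cells and not of the endogenous gene. The list holds positions with no read counts, heights or p-values, so the depth is unknown, no peak can be ranked by strength, and the label of the cells could not be checked against marker expression. There is no replicate, and the intervals below cover counting over genes only.

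Nuclear receptors are transcriptional regulators that share a ligand-binding domain, and nearly all of them also have a zinc finger DNA-binding domain, which Nr0b2 lacks. Many of them respond to small lipophilic ligands such as steroids, thyroid hormone, retinoids, oxysterols and fatty acids, and others, called orphan receptors, have no established ligand. The retinoid X receptors (RXR) pair with many of the others on DNA, and corepressors or coactivators are exchanged when a ligand binds. In blood-forming cells, retinoic acid receptors and the NR4A receptors are known for roles in stem and myeloid cells, and the glucocorticoid receptor for its action on lymphoid and myeloid cells.

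At the promoters, the peak of 1 member overlapped a tabled promoter window. RefSeq promoters (GRCm38.p6, the coordinates of mm10; 250 bases before the start and 50 after) were on hand for 40 of the 44 genes, with 61 starts. Of these 40 genes 1, Esrra, had a peak interval overlapping a promoter, or 2.5%, against 0.961% of the 17274 protein-coding genes in the table (166 genes). The members' share rests on 1 gene and was not matched for the number of starts per gene, and the difference was not tested. Esrra encodes the estrogen-related receptor alpha, a regulator of mitochondrial genes. The peak beside Nr1h2, which encodes the oxysterol receptor LXR beta, overlapped the promoter of the neighbouring gene Pold1 instead, which encodes the catalytic subunit of DNA polymerase delta. These are the promoters that the members' peaks cover, shown 5′ to 3′ with the bases inside the peak interval in capitals. Both lie on the minus strand, Esrra at chr19:6921759-6922058 and Pold1 at chr7:44548766-44549065.
Esrra: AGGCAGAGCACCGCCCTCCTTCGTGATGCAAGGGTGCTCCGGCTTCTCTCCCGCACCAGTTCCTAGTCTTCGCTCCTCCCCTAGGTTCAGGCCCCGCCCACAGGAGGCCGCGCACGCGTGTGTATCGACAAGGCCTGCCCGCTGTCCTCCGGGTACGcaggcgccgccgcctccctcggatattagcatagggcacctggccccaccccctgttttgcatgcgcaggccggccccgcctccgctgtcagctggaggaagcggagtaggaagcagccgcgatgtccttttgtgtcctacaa
Pold1: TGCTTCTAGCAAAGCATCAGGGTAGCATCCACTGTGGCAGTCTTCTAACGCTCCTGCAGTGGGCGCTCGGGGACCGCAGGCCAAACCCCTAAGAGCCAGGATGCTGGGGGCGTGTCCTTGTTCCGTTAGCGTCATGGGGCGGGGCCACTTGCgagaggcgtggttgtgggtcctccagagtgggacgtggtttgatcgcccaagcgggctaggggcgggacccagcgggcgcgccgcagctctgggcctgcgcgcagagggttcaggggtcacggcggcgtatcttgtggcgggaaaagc

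The Esrra peak covered the 157 promoter bases farthest upstream, and the Nr1h2 peak covered 152 bases of the Pold1 promoter in the same place. Both windows are rich in G and C, at 66.0% and 65.7%. Each promoter was searched on both strands for TTACGTAA, the palindrome bound by PAR bZIP proteins, for TTATGTAA and TTGCGTAA, which each differ from it by 1 base, and for the CRE palindrome TGACGTCA. Neither printed promoter held any of them, and neither held TTACGTAA with 1 mismatch. The Esrra promoter holds TGATGCAA at bases 24 to 31 from its 5′ end, inside the peak. This is the core of the C/EBP-ATF composite element and was searched for after the sequence had been read. It occurs in 0.880% of 32619 tabled promoters and in 3.96% (9) of the 227 that a peak overlaps. Over the 61 promoters of the members, TTACGTAA, TTATGTAA and TTGCGTAA were found in 0, against 0.120%, 0.944% and 0.169% of all tabled promoters. Of the 227 promoters under peaks, 0.441%, 6.17% and 4.85% held them. TGACGTCA was found in the promoters of Nr2e1 and Nr6a1, neither of which was near a peak, and in 1.80% of all promoters. Most of the members' peaks lie outside these windows, and the sequence under them was not read here.

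In the 20 kb neighbourhood, the 15 members near a peak made up 34.1% of the family (95% exact Clopper-Pearson interval 20.5 to 49.9%), where 15.3% of all protein-coding genes (3294) were near one. Nuclear receptor genes are long: their median length was 51.8 kb, against 17.4 kb over all protein-coding genes. Among other protein-coding genes in the same of 20 bins of length, the share near a peak would give 8.87 of 44 genes, or 20.2%. The members' count was 1.69 times that number. This ratio is a description of 1 list, and the difference was not tested. Its interval, that of the share divided by the share from length, was 1.02 to 2.48. Under 8 of 10 other rules for giving peaks to genes the interval included 1. The members were chosen with earlier results of these data known, which the interval does not take into account. Among the members themselves length did not order the calls. The 15 near a peak had a median length of 41.4 kb and the 29 others 53.9 kb, while over all genes those near a peak were the longer ones (29.5 against 15.8 kb). Of the members up to 9.03 kb long 2 of 5 were near a peak, against 8.94% of all genes of that length. Of those between 9.03 and 31.7 kb 5 of 12 were near one, against 15.0%, and of the longer ones 8 of 27, against 21.97%.

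**Figure D1:**
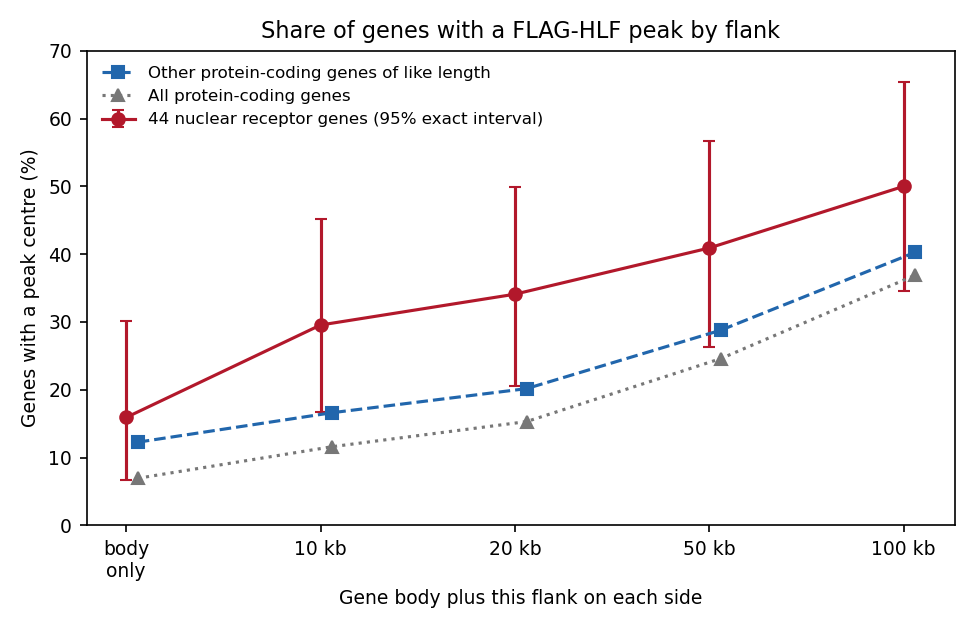
The share of genes with a peak centre (%, vertical axis) is plotted for the gene body alone and with flanks of 10, 20, 50 and 100 kb. Red points are the 44 nuclear receptor genes with exact 95% intervals, blue squares the share expected from other genes of like length, and grey triangles all protein-coding genes. The members lie above both at every flank, with 15.9 against 12.3% from length in the gene body and 34.1 against 20.2% at 20 kb, and the lower ends of the intervals fall below the length-matched share in the body and at 50 and 100 kb.

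The count was also taken with other flanks. Peak centres lay inside the body of 7 members, where 6.94% of all genes have one, and the lengths of the members would give 5.40. With flanks of 10 kb 13 members were counted (11.6% of all genes; 7.31 from length), with 50 kb 18 (24.6%; 12.7) and with 100 kb 22 (36.9%; 17.7). Within 1 kb of a gene boundary there were 2, Esrra and Nr1h2 (1.76% of all genes; 0.790 from length). Within 5 kb there were 6, with Nr1h3, Rarg, Nr4a3 and Nr3c1 added (5.14%; 2.37). With any base of the interval in place of its centre the count at 20 kb stayed at 15 (15.4%). At the limit of the rule, Esr2 was the last member inside, with its peak 17.4 kb from the gene, and Nr3c2 the first outside, at 23.2 kb.

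The count depended on how a peak was given to a gene. Of the 18 peaks 8 were near no other protein-coding gene (44.4%). Of all peaks near any protein-coding gene, each counted once, 62.9% were near only 1. A peak near several genes has more chances to be a member's peak, so these shares cannot be compared directly. The 8 unshared peaks gave 6 members: Nr2c2, Nr3c1, Nr4a3, Pparg, Rarb and Rora. By such unshared peaks 6.06% of all genes are counted, and 5.02 members would be from length. A rule giving each peak to 1 gene alone, that of the closest boundary up to 100 kb away, counted 9 members, against 11.0% of all genes and 7.002 from length. When it was given to the protein-coding gene with the nearest tabled start within 100 kb, 7 of the 40 members in the table were counted, against 11.9% of all genes and 6.19 from length. Of the 15 peaks whose member has a tabled start, 6 (40.0%) had that member's start as the nearest of any gene, and 49.7% of all such pairs of a gene and a peak did. The other 9 lay nearer the start of another gene, 5 of them within 2 kb of a protein-coding neighbour's start.

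**Figure D2:**
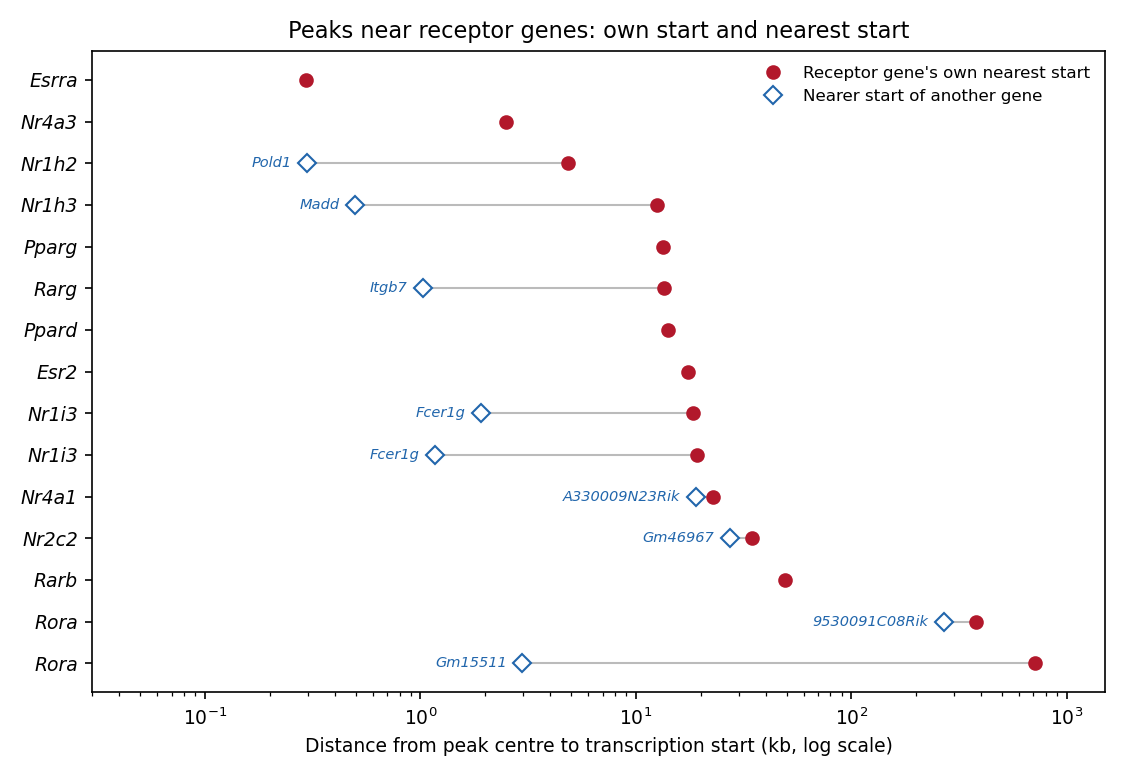
For the 15 peaks of the 13 members with a tabled start, the distance from the peak centre to the member's own nearest start (red points) and, where nearer, to the start of another gene (blue diamonds, named) is plotted in kb on a log axis. Esrra is the single member whose own start lies within 2 kb, and the peaks of Nr1h2, Nr1h3, Rarg and Nr1i3 lie within 2 kb of Pold1, Madd, Itgb7 and Fcer1g.

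The family's classes differed in how many members were near peaks, with numbers too small for any comparison between classes. The sensors of lipids, bile acids, vitamin D and xenobiotics had 5 of 10 (1.84 from length), the thyroid hormone and retinoic acid receptors 3 of 5 (1.11), and the steroid and estrogen-related receptors 3 of 8 (1.94). The NR4A receptors had 2 of 3 (0.481) and the ROR receptors 1 of 2 (0.557). The NR2 orphan receptors had 1 of 9 (1.63). None of the 3 RXR genes (0.505) and none of the 4 NR5A, NR6A and NR0B genes (0.809) was near a peak.

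**Figure D3:**
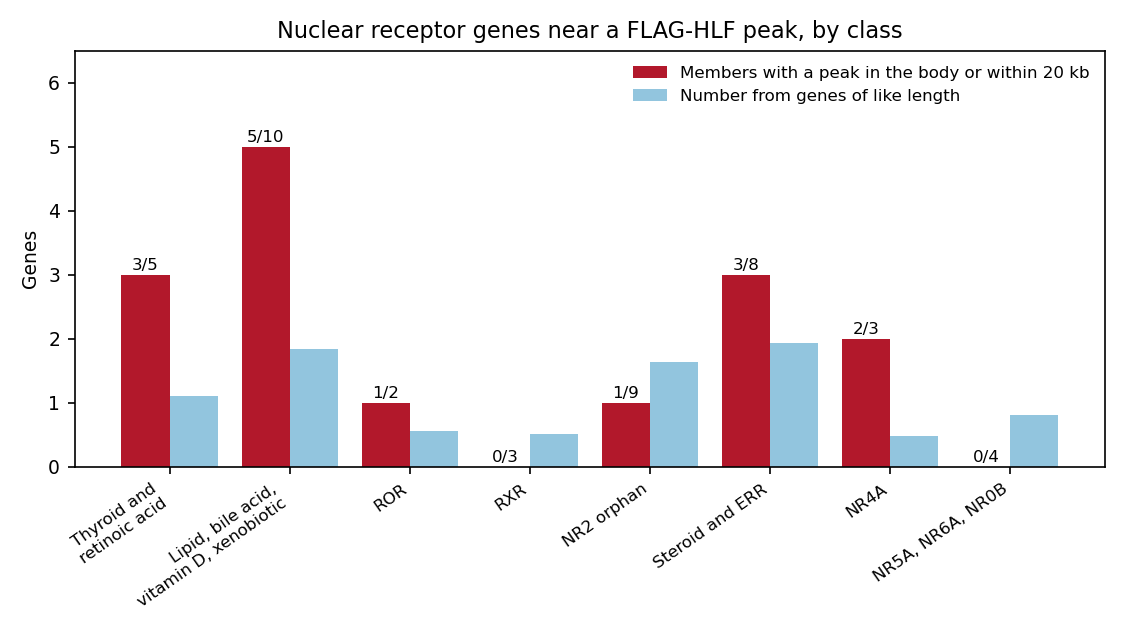
Bars give the number of genes in each of 8 receptor classes with a peak inside or up to 20 kb away (red, labelled with the class size) and the number expected from other genes of like length (blue). The lipid, bile acid, vitamin D and xenobiotic sensors reach 5 of 10 against 1.84, and the RXR and NR5A, NR6A, NR0B classes have 0.

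Among the thyroid hormone and retinoic acid receptors, Thra, Rarb and Rarg were near a peak. Thra (thyroid hormone receptor alpha; gene ID 21833; chromosome 11, 98740776 to 98769006) held 1 peak in its body, 13.9 kb from the nearer end (98754955 to 98755354). The same peak was counted for the REV-ERB alpha gene Nr1d1, whose end overlaps that of Thra, at 12.8 kb outside it and 20.2 kb downstream of its start. It was the single peak within 20 kb of Nr1d1. Rarb (retinoic acid receptor beta, gene ID 218772, chromosome 14, 16430839 to 17082331) is 651 kb long as annotated. It held 1 peak (16526122 to 16526521), which lay 49.2 kb downstream of its tabled start and near no other protein-coding gene. Rarg (retinoic acid receptor gamma, known in mice for a role in stem cell self-renewal; gene ID 19411; chromosome 15, 102234938 to 102257522) had 1 peak 1.98 kb beyond its 3′ end. That peak (102232759 to 102233158) lay inside Itgb7, the gene of the integrin beta 7 chain, 1.02 kb upstream of a tabled Itgb7 start. Rara, the gene of the receptor fused to PML in human promyelocytic leukaemia, had its nearest peak 91.2 kb away, and Thrb 199 kb.

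Of the RXR partners that sense lipids and foreign compounds, both Pparg and Ppard held a peak in the body. Pparg (the receptor that drives fat cell formation; gene ID 19016; chromosome 6, 115360879 to 115490404) has 3 tabled starts. Its peak (115375489 to 115375888) lay 14.5 and 13.3 kb downstream of the first pair and 46.4 kb upstream of the last. This peak was near no other protein-coding gene. Ppard (gene ID 19015; chromosome 17, 28232754 to 28301469), a receptor for fatty acids, had 1 peak 14.1 kb downstream of its start (28246647 to 28247046), which was also counted for Def6 at 18.2 kb. Ppara, the third of these paralogues, had its nearest peak 164 kb away.

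Both LXR genes had a peak just beyond their 3′ ends, in each case at the start of a neighbour. The Nr1h2 peak (chromosome 7, 44548914 to 44549313; gene ID 22260, 44549616 to 44553968) was 0.503 kb from the gene, 4.85 kb downstream of its start and 0.298 kb upstream of the start of Pold1, whose promoter is printed above. It was counted for Spib too, at 17.0 kb. The Nr1h3 peak (LXR alpha, which controls cholesterol efflux genes; gene ID 22259; chromosome 2, 91184061 to 91202829) lay 1.51 kb from the gene at 91182350 to 91182749. It stood inside Madd, 0.498 kb downstream of a Madd start, and 12.5 kb downstream of the nearest start of Nr1h3. Nr1i3 (CAR, a liver xenobiotic receptor; gene ID 12355; chromosome 1, 171213934 to 171218845) was counted through a pair of peaks 0.748 kb apart inside Fcer1g, the gene of the Fc receptor gamma chain. They lay 1.17 and 1.91 kb downstream of the Fcer1g start and 18.5 and 19.2 kb downstream of that of Nr1i3. Each was near 5 other protein-coding genes. Vdr, the vitamin D receptor gene, followed outside the limit at 29.3 kb, Nr1i2 (PXR) at 59.4 kb, the bile acid receptor gene Nr1h4 at 147 kb and its paralogue Nr1h5 at 610 kb.

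Rora, a receptor required for type 2 innate lymphoid cells in mice, held 2 peaks in a body of 735 kb (gene ID 19883; chromosome 9, 68653404 to 69388246). They lay 381 kb (69034264 to 69034663) and 713 kb (69367004 to 69367403) downstream of its tabled start, 333 kb apart, and neither was near another protein-coding gene. The second was 21.0 kb inside the 3′ end and 2.96 kb from the start of a noncoding gene. Its paralogue Rorb, at 181 kb also a long gene, had its nearest peak 1293 kb away. Of the RXR genes, Rxrb had its nearest peak 84.2 kb away, Rxra 163 kb and Rxrg 351 kb.

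Among the NR2 orphan receptors, Nr2c2 (TR4, which with TR2 binds embryonic globin promoters; gene ID 22026; chromosome 6, 92091418 to 92173058) held 1 peak (92126870 to 92127269), 34.6 kb downstream of its start and near no other protein-coding gene. Nr2c1, the TR2 gene, had its nearest peak 109 kb away. Hnf4a, a liver regulator, was the nearest of the others, at 35.01 kb, and Nr2f6, Nr2e1 and Nr2e3 followed at 102, 176 and 364 kb. The COUP-TF genes Nr2f1 and Nr2f2 lay 1609 and 1684 kb from a peak, and Hnf4g, at 5103 kb, was the farthest of all members.

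The glucocorticoid receptor gene Nr3c1 had 2 peaks (gene ID 14815; chromosome 18, 39410545 to 39519421). The first (39458773 to 39459172) lay in the body, 48.4 kb from the nearer end. The second (39523507 to 39523906) lay 4.29 kb outside the gene, and neither was near another protein-coding gene. With Rora, Nr3c1 was a member with 2 peaks of its own. Esrra (gene ID 26379; chromosome 19, 6910977 to 6922048) had the closest peak to a start, centred 0.293 kb upstream of it (6921902 to 6922301) and 0.053 kb outside the gene. The region is gene-dense, and the peak was near 6 other protein-coding genes, of which Catsperz ended 0.325 kb away. Esr2 (estrogen receptor beta; gene ID 13983; chromosome 12, 76120419 to 76177259) had 1 peak 17.4 kb upstream of its start (76194501 to 76194900), which was 3.99 kb from Tex21. The mineralocorticoid receptor gene Nr3c2 followed at 23.2 kb, Esrrb at 298 kb, Esr1 at 510 kb, the progesterone receptor gene Pgr at 1062 kb and Esrrg at 2715 kb.

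The NR4A receptors are immediate early genes, and combined loss of Nr4a1 and Nr4a3 in mice leads to acute myeloid leukaemia. Nr4a3 (gene ID 18124, chromosome 4, 48045078 to 48086447) had 1 peak 2.50 kb upstream of its start (48042603 to 48043002). That peak was near no other protein-coding gene. It was the nearest to an own start after that of Esrra. Nr4a1 (gene ID 15370; chromosome 15, 101253902 to 101274795) had 1 peak 9.80 kb outside the gene (101243902 to 101244301), 22.7 kb upstream of its tabled start and 11.3 kb from Grasp. Nr4a2 had its nearest peak 1013 kb away. In the last class, the nearest peaks lay 66.0 kb from Nr0b2 (SHP, a repressor in bile acid signalling), 178 kb from Nr5a1, 209 kb from its neighbour Nr6a1 and 707 kb from Nr5a2.

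**Figure D4:**
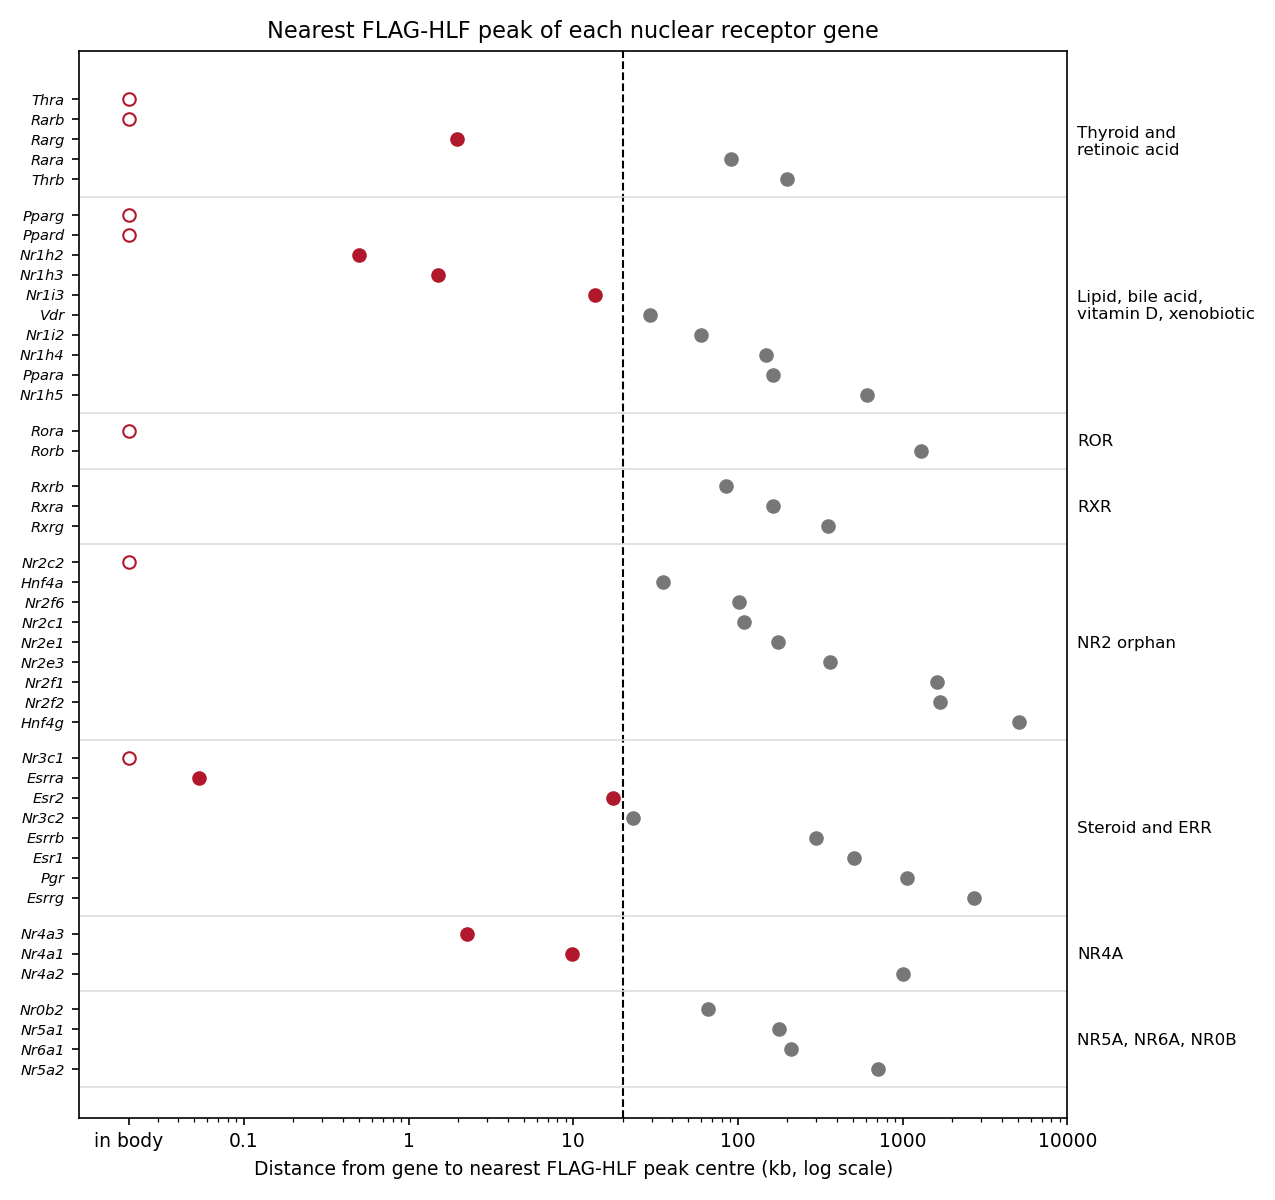
The distance from each of the 44 genes to its nearest peak centre is plotted in kb on a log axis, grouped by class. Open circles mark the 7 genes with a peak in the body, filled red circles the 8 with a peak within 20 kb (dashed line) and grey circles the 29 others, which spread from 23.2 kb (Nr3c2) to 5103 kb (Hnf4g).

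Over the whole family, the nearest peak lay at a median of 96.6 kb (quartiles 2.20 and 354 kb), against 179 kb (51.3 and 556 kb) over all protein-coding genes, which were shorter. The far end of the range was alike: 7 members (15.9%) had no peak within 1 Mb, and 15.1% of all genes had none. Some paralogues stood far apart in this range, as with Rora and Rorb, Nr4a3 and Nr4a2, or Esr2 and Esr1. Of the 15 members near a peak, 3 had 2 peaks, and 17.8% of all genes near a peak had 2 or more. The share of the members' peaks inside the member's own body was 44.4%, and 44.1% over all 4005 pairs of a gene and a near peak. No peak was near more than 1 member. Thra and Rara lie 159 kb apart, too far to share a peak with flanks of 20 kb. Nr5a1 and Nr6a1 lie 8.83 kb apart, but neither had a peak within 20 kb to share.

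Further genes of the pathway were counted in 3 lists with 76 genes. Of 29 coregulators 8 were near a peak (27.6%, interval 12.7 to 47.2%; 6.19 from length), which is a ratio of 1.29. They were the coactivator genes Ncoa2, Ncoa3, Ncoa6 and Med1, and the corepressor complex genes Ncor1, Rcor1, Gps2 and Tbl1x. The Med1 peak lay 0.572 kb upstream of the Med1 start, and 1 of the 2 at Tbl1x lay 1.82 kb upstream of its start. The Ncor1 peak was 13.3 kb upstream. The peaks of Med1, Ncor1, Gps2 and Ncoa6, and 1 of the 2 at Ncoa3, were also near other protein-coding genes. Of 25 genes that make, break down or carry ligands 3 were near a peak (12.0%, 2.55 to 31.2%; 3.73 from length). These were Hsd11b1 and Hsd11b2, which interconvert active and inactive glucocorticoids, and the vitamin D activating enzyme gene Cyp27b1. The Hsd11b1 peak lay 0.786 kb upstream of a tabled start, inside the annotated gene. Those of Hsd11b2 and Cyp27b1 lay 19.4 and 8.96 kb outside the genes and were also near other genes. Of 22 textbook target genes of the receptors 7 were near a peak (31.8%, 13.9 to 54.9%; 3.88 from length). They included Fkbp5, Dusp1, Zbtb16, Nfkbia and Klf9, known targets of the glucocorticoid receptor, and the PPAR targets Angptl4 and Cpt1a. Fkbp5 held 1 peak 33.3 kb inside the gene, Zbtb16 held 2, at 16.3 and 21.5 kb inside, and the Dusp1 peak lay 4.13 kb upstream of its start. Angptl4 held 1 peak 0.875 kb inside a gene end, and Cpt1a 1 at 7.02 kb inside. The Cpt1a peak was also near another protein-coding gene. The Nfkbia peak was 0.516 kb from the gene and 3.75 kb downstream of its start, and the Klf9 peak 15.8 kb upstream. The other 15 targets had no peak within 20 kb.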

How the data were processed

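The deposited file is a list of 3153 peaks of 400 bp (chromosome, start, end) from the FLAG-HLF library. It holds no count, score or p-value, so depth and precision per peak are unknown. The submitters' processing notes list Bowtie2 2.0.6, MACS2 2.0.10 and mm10 without saying what each was used for. How peaks were thresholded, whether the control entered peak calling, and how 1 width was set: not given in the sources used here.

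A peak's position was its start + 200. Genes came from a RefSeq table of GRCm38.p6 (49997 rows, of which 49214 on chromosomes 1 to 19 and X with a start above 3 Mb were used). Starts, strands and promoters came from a RefSeq promoter table. All 120 list symbols matched. The number from length sums, over members, the share near a peak among other protein-coding genes in the same of 20 bins of gene length plus flanks. No test was run. Python 3.11.15, pandas 2.3.3, numpy 2.4.6 and scipy 1.17.1 were used, and the assignment was tested on simulated data. The members and lists were chosen with earlier results of these data known. Named were all members near a peak, those at the 20 kb limit, the nearest and farthest of the others, and every list gene near a peak. Of the remaining members, paralogues and classmates of those near a peak were named after their values were seen.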

Additional observations from a re-analysis of the deposited data

How the results depend on the processing

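The ratio of members near a peak to the number from length was above 1 in the 15 alternatives that could change it, from 1.13 to 2.53, but its interval included 1 under 8 of the 10 other rules for giving peaks to genes. It was 2.53 within 1 kb and within 5 kb of a boundary, 1.13 by the nearest tabled start, and 2.23 without length matching. The other ways of matching gave 1.55 to 1.71, and bins of gene body length are the same bins by construction. The count of 15 members fell to 2 within 1 kb of a boundary, 6 within 5 kb, 7 in the body, 9 by the nearest boundary, 6 with unshared peaks and 7 by the nearest tabled start, where fewer genes can be counted by construction. Classes with a member near a peak fell from 6 to 2 within 1 kb. The 18 of 76 genes of the other lists (13.8 from length) became 4 within 1 kb (1.39 from length; 1.76% of all genes), 7 within 5 kb (4.11; 5.14%), 8 in the body (7.60; 6.94%), 11 with unshared peaks (7.06; 6.06%) and 36 within 100 kb (30.1; 36.9%). With peaks under 1 kb apart counted once, 17 of the 18 peaks were left. Members with TTACGTAA in a promoter went from 0 to 1 (Rorb) with 1 mismatch, and TGATGCAA was found in 1 (Esrra). The nearest start, the gene background without Olfr, Vmn, Gm and Rik symbols, and TGATGCAA were chosen after seeing the data. No paired analysis was possible because there is 1 library per group and 1 peak list was used; leaving out replicates was likewise not possible. With 44 genes and 1 list without scores, differences between classes could not be resolved.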
